A study of Mus musculus with 6 samples.

Results

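H3K4me3, the histone mark of active and poised promoters, was mapped by ChIP-seq at the Notch receptors and their target genes in a mouse pro-T and a mouse pre-B cell line. The 10 genes were given by name and comprise the receptors Notch1, Notch2, Notch3 and Notch4, the glycosyltransferase gene Lfng, the transcription factor gene Rbpj and the target genes Hes1, Hes5, Dtx1 and Nrarp. All 10 were found among the 21951 protein-coding genes of the GENCODE M21 annotation of GRCm38. Their promoters and gene bodies held 17 of the 15513 peaks of the pro-T line and 14 of the 19604 peaks of the pre-B line.

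The pro-T cells were Scid.adh.2C2, a clonal line that goes back to a thymic tumour of CB17-Prkdc scid mice and resembles DN3 thymocytes, the stage at which T cell commitment is complete. The pre-B cells were a murine B cell progenitor line transformed with Abelson virus, called the pre-B line here. Both were untreated cultures, each line is 1 tumour-derived or transformed clone, and each had 2 H3K4me3 libraries (Millipore antibody) and 1 input library. The authors combined the 2 libraries of a line into 1 reproducible peak list, which holds no value per library and no read depth. No spread between replicates can therefore be given and no test was made. Differences between the lines are set side by side as descriptions.

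Notch receptors are cut by a metalloprotease and then by gamma-secretase when a ligand on a neighbouring cell binds them. The released intracellular domain enters the nucleus, joins the DNA-binding protein RBPJ and a Mastermind coactivator, and turns on target genes such as Hes1, Hes5, Dtx1 and Nrarp. In the lymphoid system Notch1 signalling drives progenitors into the T lineage and holds back B cell development, while LFNG modifies the receptors with sugars and tunes their response to ligands.

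The promoter of a gene comprised the bases within 2500 bp of any annotated transcription start site (TSS), and a gene was marked if at least 1 bp of its promoter lay in a peak. In Scid.adh.2C2 9 of the 10 genes were marked, against 45.5% of all protein-coding genes. For the pre-B line 8 of the 10 were marked, against 48.2% of all protein-coding genes. The same 8 genes were marked in both lines, a status shared by 9261 protein-coding genes (42.2%). Dtx1 was the 1 gene marked in Scid.adh.2C2 only, as were 719 protein-coding genes (3.28%), and none of the 10 was marked in the pre-B line only (1309 protein-coding genes, 5.96%). Lfng had no promoter peak in either line, in common with 10662 protein-coding genes (48.6%). Where no peak is listed, none reached the thresholds set by the authors.

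**Figure D1:**
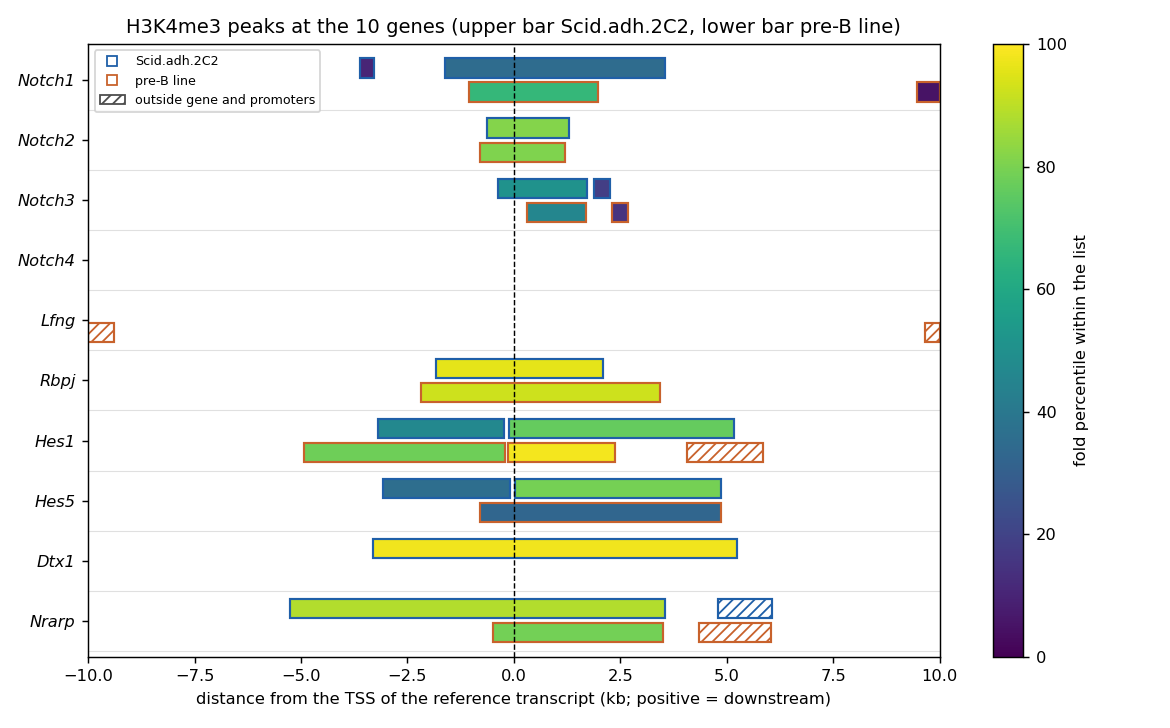
H3K4me3 peaks within 10 kb of the TSS of the reference transcript (the protein-coding transcript with the longest coding sequence) of the 10 genes, with distance in kb on the x axis. The upper bar of each pair is Scid.adh.2C2 and the lower is the pre-B line, the outline gives the line and the fill gives the percentile of the peak's fold enrichment within its list. Dtx1 has a bar of 8548 bp in Scid.adh.2C2 and none in the pre-B line, the Nrarp bar reaches 5264 bp upstream in Scid.adh.2C2 and 483 bp in the pre-B line, Notch4 has no peak in this range, and Lfng has only the ends of 2 peaks of the pre-B line near its edges. Hatched bars are peaks outside the gene and its promoters.

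The reference sequences upstream of 5 of the genes are shown, as examples whose peaks differed between the lines or that hold the RBPJ recognition sequence. Hes1, whose peaks also differed in width, had no entry in the RefSeq promoter table and is not shown. Each runs 5′ to 3′ on the strand of the gene and ends at the base before the annotated start. Capitals mark GTGGGAA, the RBPJ motif, or its core TGGGAA where the first base differs, on either strand. The core lies inside the longer motif, so that every match of the longer motif is also a match of the core. The sequences of Hes5, Nrarp, Lfng and Notch1 are from the RefSeq promoter table (GRCm38.p6), shortened for Lfng to the part outside the transcript. That of Dtx1 was read from the GRCm38 genome, upstream of the GENCODE start, since the RefSeq start of Dtx1 lies inside the GENCODE transcript.
Hes5, chr4:154960673-154960922, plus strand: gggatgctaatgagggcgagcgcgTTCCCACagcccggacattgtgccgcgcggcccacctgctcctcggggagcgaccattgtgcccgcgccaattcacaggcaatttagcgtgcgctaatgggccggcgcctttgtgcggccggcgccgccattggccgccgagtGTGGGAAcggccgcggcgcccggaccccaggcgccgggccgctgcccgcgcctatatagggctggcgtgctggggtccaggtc
Nrarp, chr2:25180508-25180757, plus strand: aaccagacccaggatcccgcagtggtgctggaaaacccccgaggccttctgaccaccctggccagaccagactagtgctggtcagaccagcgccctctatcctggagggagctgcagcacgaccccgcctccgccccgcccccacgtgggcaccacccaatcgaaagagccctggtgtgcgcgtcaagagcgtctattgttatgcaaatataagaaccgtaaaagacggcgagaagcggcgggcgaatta
Lfng, chr5:140607091-140607319, plus strand: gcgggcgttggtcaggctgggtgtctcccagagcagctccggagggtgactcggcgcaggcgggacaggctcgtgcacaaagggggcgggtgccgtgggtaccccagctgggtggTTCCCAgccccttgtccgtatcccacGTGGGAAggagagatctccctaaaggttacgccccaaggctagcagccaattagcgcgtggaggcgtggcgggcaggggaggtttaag
Notch1, chr2:26503823-26504072, minus strand: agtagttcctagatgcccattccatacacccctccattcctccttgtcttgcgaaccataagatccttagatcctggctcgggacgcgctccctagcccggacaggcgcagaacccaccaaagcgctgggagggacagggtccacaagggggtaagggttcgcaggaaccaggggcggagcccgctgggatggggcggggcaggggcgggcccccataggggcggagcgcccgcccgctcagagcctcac
Dtx1, chr5:120711928-120712177, minus strand: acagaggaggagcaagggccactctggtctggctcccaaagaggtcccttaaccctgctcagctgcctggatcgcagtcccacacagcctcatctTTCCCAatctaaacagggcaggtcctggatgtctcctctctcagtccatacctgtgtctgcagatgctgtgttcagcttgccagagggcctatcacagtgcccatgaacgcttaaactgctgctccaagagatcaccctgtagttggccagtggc

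RefSeq promoter entries of 300 bases, from 250 before the start to 50 after it, were held for 9 of the 10 genes (Rbpj has 2). Hes1 had no entry, so its promoter was not searched for the motif. GTGGGAA was found on either strand in the entries of 2 of the 9, Hes5 and Lfng, and in 6.38% of all 32851 entries. The core TGGGAA was found in 3 of the 9, Hes5, Lfng and Rbpj, and in 25.6% of all entries. In the Hes5 entry the 2 matches lay on opposite strands, 1 beginning 226 bases upstream of the start and the other 83. In the Lfng sequence 1 match of the longer motif began 88 bases upstream of the GENCODE start. Neither Lfng match of the core lay in a peak in either line, whereas both core positions of Rbpj lay inside the promoter peaks of both lines. A match is a description of the letters only and says nothing of binding.

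The promoters of the 9 genes with an entry, which leave out Hes1, were rich in GC. Their share ran from 58.3% in Notch4 to 73.0% in Notch2, against a median of 52.7% over all entries. The observed over expected CpG ratio was lowest in Notch4, at 0.214, below the median of 0.384 over all entries. It lay between 0.660 in Notch1 and 1.04 in Notch2 in the others. Notch4 was also the receptor whose own 5′ start had no peak in either line. Lfng, without a promoter peak, had a ratio of 0.688, within the range of the marked genes.

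Of the receptors, Notch1, the main receptor of early T cell development, had the most peaks. The gene lies at chr2:26457903-26516663 on the minus strand. In Scid.adh.2C2 the peak at the start of the reference transcript was 5174 bp wide with a fold enrichment of 14.4 over background, at the 35.0th percentile of fold among the peaks of that list. The pre-B line had a peak at this start that was 3043 bp wide with a fold of 19.6, at the 66.5th percentile. The Scid.adh.2C2 peak was thus the wider but the lower in rank, and it covered the whole peak of the pre-B line. It extended 557 bp further upstream and 1574 bp further into the gene.

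A second Notch1 peak, found only in the Scid.adh.2C2 list, lay near the 3′ end of the gene at chr2:26463356-26465642. It was 2287 bp wide with a fold of 19.8, at the 48.7th percentile, which made it the highest Notch1 peak of this line. Its summit lay 38590 bp downstream of the reference start, in intron 28 of a transcript with 34 exons, and 931 bp from the nearest annotated start, that of a processed transcript. No annotated start lay inside the peak. Of the 2531 codons of the coding sequence 1712 lay upstream of it. The exons at this end of Notch1 encode the intracellular domain, and initiation of truncated transcripts inside the gene is known from mouse T cell leukaemias. Transcripts were not measured here.

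The 200 bases around the summit of this internal peak, at chr2:26465132-26465331 on the minus strand, are shown because this site was marked in 1 line only. They hold neither form of the motif, and 59.0% of them are G or C.
Notch1, internal peak of Scid.adh.2C2: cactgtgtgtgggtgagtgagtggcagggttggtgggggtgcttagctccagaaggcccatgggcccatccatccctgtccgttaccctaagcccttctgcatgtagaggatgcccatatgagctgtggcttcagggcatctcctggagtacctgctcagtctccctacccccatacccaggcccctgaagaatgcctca

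Within Notch1 the pre-B line had its own internal peaks, none of them at this site. The first, at chr2:26482722-26484299, was 1578 bp wide with a fold of 11.2 and its summit in intron 4. The second, at chr2:26492461-26494351, was 1891 bp wide with a fold of 6.40 and its summit in intron 2. Neither lay within 2500 bp of an annotated start of the gene. Their fold percentiles of 32.4 and 4.91 placed both among the lower peaks of the list of the pre-B line.

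Upstream of the Notch1 reference start Scid.adh.2C2 also had narrow, low peaks that the pre-B line lacked. One of 342 bp and 7.17-fold had its summit 3451 bp upstream. Another of 306 bp and 5.94-fold lay 1238 bp upstream of the most upstream annotated Notch1 start and had an IDR score of 557, where 1000 is the highest score, so that it was among the less reproducible peaks. In the 50000 bp outside the gene, 3 further Scid.adh.2C2 peaks reached no promoter window, with folds from 5.66 to 9.01 and summits from 21945 to 48144 bp upstream. The list of the pre-B line held no such peak there.

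**Figure D2:**
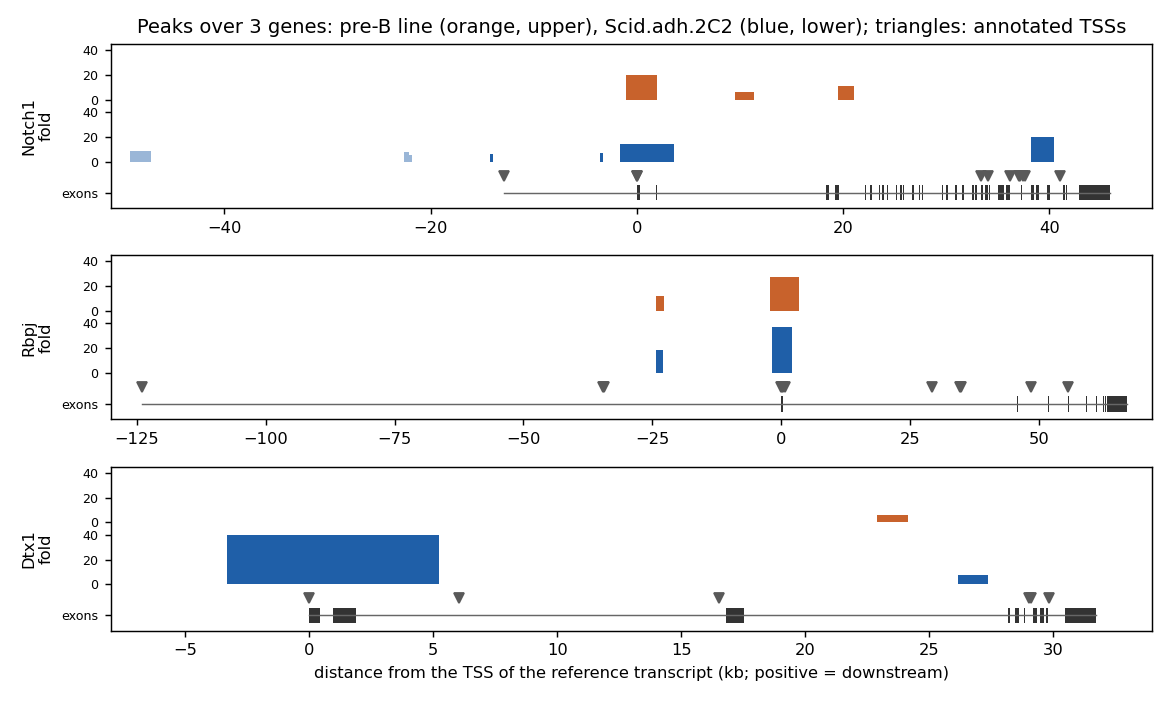
Peaks over Notch1, Rbpj and Dtx1, with distance from the reference TSS in kb on the x axis and fold enrichment as bar height. The upper track of each panel is the pre-B line and the lower Scid.adh.2C2, with exons as black boxes, annotated TSSs as triangles and peaks outside the gene and its promoters in pale colour. The Notch1 peak centred near the 3′ exons and the Dtx1 promoter peak appear in Scid.adh.2C2 only, whereas the pair of Rbpj peaks is in the same place in both lines.

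Notch2, the receptor required for marginal zone B cells, was marked alike in both lines. The Scid.adh.2C2 peak was 1935 bp wide with a fold of 30.3 (81.4th percentile), and the peak of the pre-B line was 2007 bp wide with a fold of 23.2 (80.7th percentile). The summits lay 59 bp apart and 1848 bp were shared. No further peak was found in the gene, which spans 136835 bp at chr3:98013527-98150361.

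Notch3, a receptor whose expression accompanies pre-T cell receptor signalling in thymocytes, lies at chr17:32120820-32166852 on the minus strand. Its larger peak was 2079 bp wide with a fold of 20.6 in Scid.adh.2C2 (50.5th percentile). That of the pre-B line was 1364 bp wide with a fold of 14.3 (45.8th percentile) and lay wholly within the first. The ends at the start of the gene differed, since the Scid.adh.2C2 peak ran from 369 bp upstream of the TSS, whereas that of the pre-B line began 319 bp downstream of it. Both summits were in intron 1, 73 bp apart. A second peak in intron 1 was listed in each line, 387 bp wide with a fold of 8.69 in Scid.adh.2C2 and 383 bp wide with a fold of 8.08 in the pre-B line, and these did not overlap each other.

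Notch4, a receptor best known from the vascular endothelium, was counted as marked in both lines, but not at its 5′ end. The gene lies at chr17:34564268-34588503, and the peak nearest to its reference start was 22402 bp away in Scid.adh.2C2 and 22293 bp away in the pre-B line. In Scid.adh.2C2 the peak at its 3′ end was 4057 bp wide with a fold of 27.4 (72.2nd percentile). That of the pre-B line was 5608 bp wide with a fold of 24.8 (86.2nd percentile), with the summit at the same base. That summit lay 2538 bp from the nearest Notch4 start and 227 bp upstream of a start of Gpsm3, and the peaks also reached the promoter window of Pbx2. The signal cannot be assigned to Notch4, and when the start of the reference transcript alone or the summit position decided, Notch4 was unmarked in both lines.

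Lfng, at chr5:140607320-140615545, was the 1 gene of the 10 without a promoter peak in either line. The nearest peak to its start was 40385 bp away in Scid.adh.2C2. In the pre-B line it was 9390 bp away, at chr5:140595376-140597930, 2555 bp wide with a fold of 9.52, and a peak of 796 bp and 6.86-fold lay past the other end of the gene. The 2 peaks that flank Lfng in the pre-B line had no counterpart in Scid.adh.2C2, and both ranked low in their list by fold, at the 23.8th and 7.35th percentiles. Mfng and Rfng, which encode the related Fringe enzymes, were marked in both lines.

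Rbpj, at chr5:53466152-53657362, encodes the DNA-binding partner of all Notch receptors and had one of the highest promoter peaks of the group in both lines. At the cluster of starts around the reference TSS the Scid.adh.2C2 peak was 3933 bp wide with a fold of 37.3 (95.8th percentile). The peak of the pre-B line was 5615 bp wide with a fold of 27.1 (92.5th percentile), covered the whole of the first, and had its summit 6 bp away. The annotated starts further upstream in this gene of 191211 bp had no peak within 2500 bp in either line.

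A second Rbpj peak lay upstream of the reference start in both lines, at chr5:53565874-53567334 in Scid.adh.2C2 and chr5:53565890-53567544 in the pre-B line. The folds were 18.8 (45.8th percentile) and 12.1 (36.1st percentile), and 1445 bp were shared. Its summit lay 10737 bp from the nearest annotated Rbpj start in Scid.adh.2C2 and 11154 bp from it in the pre-B line, so that it reached no promoter window of the gene.

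Hes1, a repressor of the bHLH family and a general Notch target, lies at chr16:30064384-30067796 and was marked by a pair of peaks in each line, on either side of a gap of 120 bp in Scid.adh.2C2 and 78 bp in the pre-B line. The gap lay upstream of the reference start in both, from 238 to 119 bp upstream in the first and from 213 to 136 bp in the second. The downstream peak was the higher of the pair, with a fold of 28.7 in Scid.adh.2C2 (76.4th percentile) and of 31.0 in the pre-B line (98.1st percentile), and its summits lay 17 bp apart. The widths ran in opposite directions. Upstream, the peak was 2965 bp wide in Scid.adh.2C2 and 4728 bp in the pre-B line. Downstream, it was 5290 bp wide in Scid.adh.2C2 and 2521 bp in the pre-B line, where a separate peak of 1780 bp and 15.6-fold followed beyond the gene. This separate peak overlapped the downstream peak of Scid.adh.2C2, so that part of the extra width there was marked in the pre-B line too.

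Hes5, a bHLH repressor and Notch target best known from neural progenitors, lies at chr4:154960923-154962371 and had a different arrangement in each line. In Scid.adh.2C2 a peak of 3000 bp (14.6-fold, 35.6th percentile) lay upstream and one of 4831 bp (29.5-fold, 79.0th percentile) downstream of a gap of 115 bp at chr4:154960843-154960957. This gap ran from 80 bp upstream to 34 bp downstream of the TSS, and the sense match of the RBPJ motif in the sequence above, which spans bases 83 to 77 upstream, crossed its upstream edge. A single peak of 5667 bp (11.3-fold, 32.7th percentile) ran in the pre-B line across the TSS and over both motif matches.

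The Hes5 values were shared with a neighbour. The summit of the downstream Scid.adh.2C2 peak lay 3333 bp past the Hes5 start and 123 bp from a start of Pank4, the next gene on the same strand, so that its 29.5-fold cannot be read as a Hes5 value. When the summit had to lie in the Hes5 window, the percentile was 35.6 in Scid.adh.2C2, with the summit 2378 bp upstream of Hes5. It was 32.7 in the pre-B line, where the summit was within Hes5, 927 bp from its nearest start. Gm20421, a transcript on the opposite strand, starts in the same window, and the pre-B summit lay 220 bp upstream of a start of it. Both peaks reached the Gm20421 window, so neither percentile can be assigned to Hes5 alone. Scid.adh.2C2 also had 3 peaks between 11679 and 17935 bp upstream of Hes5 that the pre-B line lacked, with folds from 4.99 to 6.45, among the lowest of the list.

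Dtx1, whose product Deltex is a ubiquitin ligase that binds the Notch intracellular domain, lies at chr5:120680202-120711927 on the minus strand and was the 1 gene of the group marked in a single line. In Scid.adh.2C2 a single peak of 8548 bp, at chr5:120706694-120715241, reached from 3314 bp upstream to 5233 bp downstream of the TSS. Its fold of 39.5 was at the 97.8th percentile and 8 of the 15513 peaks of the list were wider. In the pre-B line no peak lay within 2500 bp of any Dtx1 start, and the nearest peak to the reference start was 22902 bp away.

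Inside Dtx1 each line had 1 low peak in intron 3. That of Scid.adh.2C2 was 1201 bp wide with a fold of 7.51 (12.4th percentile), and that of the pre-B line was 1245 bp wide with a fold of 6.05 (3.46th percentile). These peaks did not overlap. The 250 bases upstream of the Dtx1 start, shown above, hold 1 antisense match of the core and no match of the longer motif.

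Nrarp, a single-exon gene at chr2:25180758-25183339 whose product limits Notch signalling by binding the intracellular domain, was marked in both lines, by a wider peak in Scid.adh.2C2. In Scid.adh.2C2 the peak was 8806 bp wide with a fold of 33.0 (88.5th percentile), and 7 peaks of the list were wider. In the pre-B line the peak was 3983 bp wide with a fold of 22.7 (78.7th percentile), and 1062 peaks were wider. The downstream ends lay 42 bp apart, and nearly all of the difference was upstream of the gene, where the Scid.adh.2C2 peak extended 4781 bp further. Both lines had a further peak downstream, after a gap of 856 bp in the pre-B line and of 1262 bp in Scid.adh.2C2. With peaks within 1000 bp merged, the pre-B line alone gained it, and its width became 6534 bp against 8806 bp. Scid.adh.2C2 also had a peak of 1980 bp and 19.0-fold 12847 bp upstream that overlapped no peak of the pre-B line, next to one of 771 bp and 6.96-fold. The pre-B line in turn had a peak of 1050 bp and 7.64-fold, 16955 bp upstream, that overlapped none of Scid.adh.2C2. Gm38287, an antisense transcript of Nrarp, shares the promoter window.

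**Figure D3:**
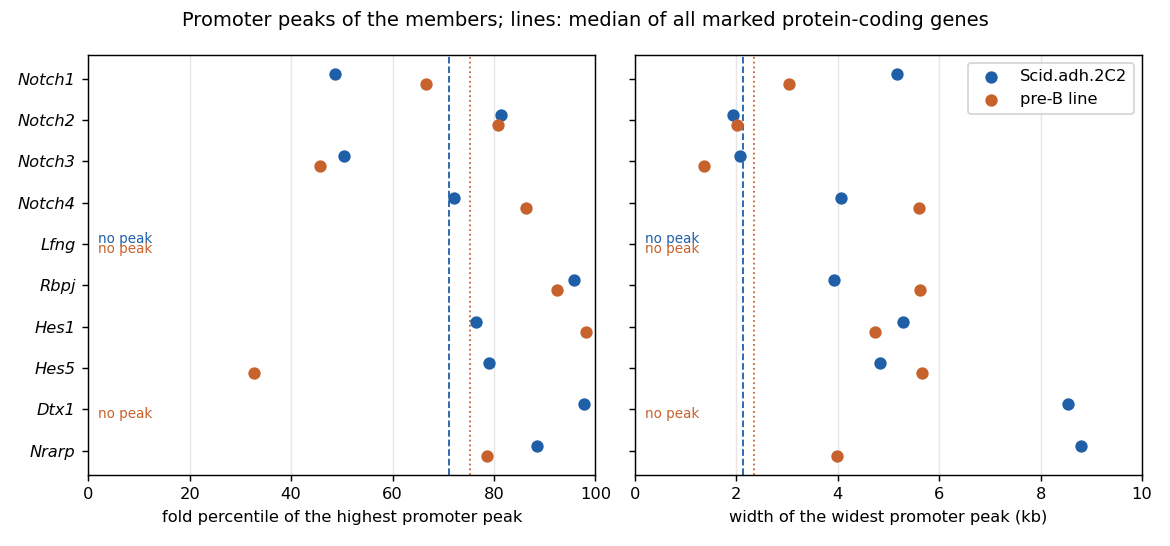
Left, percentile of the fold enrichment of the highest promoter peak within its list (x axis, 0 to 100), and right, width in kb of the widest promoter peak, for the 10 genes in Scid.adh.2C2 (blue) and the pre-B line (orange). The vertical lines are the medians of all marked protein-coding genes. Dtx1 at 8548 bp and Nrarp at 8806 bp in Scid.adh.2C2 lie furthest to the right of the width panel, and Lfng has no value in either line.

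As listed, the peaks of Dtx1 and Nrarp in Scid.adh.2C2 were the widest promoter peaks of the group. This depended on where the peak caller split a marked region, since with peaks within 1000 bp merged Hes1 reached 8375 bp and Hes5 7946 bp in Scid.adh.2C2, beside 8548 bp for Dtx1 and 8806 bp for Nrarp. Among the 9 marked genes the median width of the widest promoter peak was 4831 bp in Scid.adh.2C2, against 2134 bp over all marked protein-coding genes. That median is the width of the Hes5 peak with its summit near Pank4, and the Notch4 peak near Gpsm3 is also counted. The median was 4356 bp over the 8 marked genes of the pre-B line, against 2351 bp. Of the 7 Scid.adh.2C2 peaks wider than that of Nrarp, the widest, of 11569 bp, reached no promoter of a protein-coding gene. The others lay at Tcf7, Bcl11b and Gata3, which encode transcription factors of the T lineage, at Nr3c1, the glucocorticoid receptor gene, at Setd1b, a histone methyltransferase gene, and at Chdh with Il17rb. These genes were named after their values were seen. In the pre-B line the widest promoter peaks of the group were those of Hes5 (5667 bp), Rbpj (5615 bp) and Notch4 (5608 bp), and the first and last of these were shared with neighbouring genes.

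Of the 8 genes marked in both, 4 had the wider promoter peak in Scid.adh.2C2 (Notch1, Notch3, Hes1 and Nrarp) and 4 in the pre-B line. Over all 9261 genes marked in both lines, the peak was wider in Scid.adh.2C2 for 29.7%. The fold percentile of the highest promoter peak was higher in Scid.adh.2C2 for 5 of the 8 (Notch2, Notch3, Hes5, Nrarp and Rbpj), against 44.2% of all genes marked in both. With 8 genes nothing is read from these counts. The median fold percentile was 79.0 over the 9 genes marked in Scid.adh.2C2 and 79.7 over the 8 in the pre-B line, where all marked protein-coding genes had medians of 71.2 and 75.2. The value of 79.0 is that of the Hes5 peak with its summit near Pank4, and the same peak was used to count Hes5 among the 5. When the summit had to lie in the window, Hes5 stayed among the 5, at 35.6 in Scid.adh.2C2 against 32.7 in the pre-B line. Those values too cannot be assigned to Hes5 alone.

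Internal peaks, those starting more than 2500 bp downstream of the most upstream TSS, were found in the same 4 genes in both lines: Notch1, Notch4, Dtx1 and Rbpj. Each line had 7 of them, in 4 of the 9 genes longer than 2500 bp. Of all protein-coding genes of that length 12% had an internal peak in Scid.adh.2C2, against 16.5% in the pre-B line. By this definition the peaks at the reference starts of Notch1 and Rbpj count as internal, because both genes have annotated starts further upstream. The Notch4 peak counted in each line is the one near Gpsm3, whose signal cannot be assigned to Notch4. Among peaks of at least 10-fold, internal peaks remained in 3 genes in each line, Notch1, Notch4 and Rbpj. Of the 7 internal peaks 5 lay within 2500 bp of an annotated start of the gene in Scid.adh.2C2 against 3 in the pre-B line.

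The other genes of the Notch pathway were examined by role with the same promoter rule. Of 54 such genes 40 were marked in Scid.adh.2C2 against 43 in the pre-B line, 36 of them in both lines, 4 in Scid.adh.2C2 only, 7 in the pre-B line only and 7 in neither. Of all protein-coding genes, 45.5% were marked in Scid.adh.2C2, against 48.2% for the pre-B line. By class, the shares were 42.2% for both lines, 3.28% for Scid.adh.2C2 only, 5.96% for the pre-B line only and 48.6% for neither. The same shares are the background of the counts by role below.

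Of the 5 ligand genes, 1 was marked in Scid.adh.2C2 against 3 in the pre-B line. Dll4, the main Notch1 ligand of the thymic epithelium, was marked in both, with a peak of 927 bp in Scid.adh.2C2 and of 2966 bp in the pre-B line. Dll1 (13.4-fold) and Jag2 (14.5-fold), 2 ligands of other Notch signalling settings, were marked in the pre-B line only, and Dll3 and Jag1 in neither line.

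All 14 genes for receptor glycosylation and cleavage were marked in the pre-B line and 13 of them in Scid.adh.2C2. The exception was Aph1c, a gamma-secretase subunit gene, with 19.6-fold in the pre-B line. Of the 12 genes for nuclear cofactors, all were marked in the pre-B line and 11 in Scid.adh.2C2, the exception being Rbpjl, an RBPJ relative of the pancreas, with a peak of 11.9-fold that also reaches the promoter window of Matn4. Of the 11 genes for turnover and trafficking 8 were marked in both lines. Among the Deltex relatives of this list Dtx4 was marked in Scid.adh.2C2 only (31.0-fold, 83.4th percentile). Dtx3l, which shares its promoter with Parp9, was marked in the pre-B line only (31.0-fold, 98.2nd percentile). Neurl1a, a ubiquitin ligase gene, was marked in neither.

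The 12 other target genes comprised 3 marked in both lines, 3 in Scid.adh.2C2 only, 2 in the pre-B line only and 4 in neither. The genes marked in Scid.adh.2C2 only were Ptcra (16.6-fold, 2958 bp), which encodes the pre-T cell receptor alpha chain, Il2ra (21.8-fold, 4764 bp), which encodes CD25, and Gata3 (39.9-fold, widest peak 9343 bp). These 3 are also T cell markers. Tcf7, which encodes TCF1, was marked in both, by a peak of 10029 bp (36.0-fold, 94.1st percentile) in Scid.adh.2C2 and of 1332 bp (15.2-fold, 49.5th percentile) in the pre-B line. Hes6 and Hes7, bHLH genes related to Hes1, were also marked in both lines.

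Myc, a growth regulator and Notch target in T cell leukaemia, was marked in the pre-B line only, by a peak of 6600 bp with a fold of 31.9 (98.7th percentile). The Scid.adh.2C2 list held no peak in its promoter windows. That list holds only peaks that reached the thresholds of the authors, and its read depth is unknown. A missing entry therefore does not show that the Myc promoter lacked H3K4me3 in Scid.adh.2C2. Hes2, a further bHLH gene, was marked in the pre-B line only and by a low peak (6.47-fold). The bHLH genes Hes3, Hey1, Hey2 and Heyl had no promoter peak in either line.

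**Figure D4:**
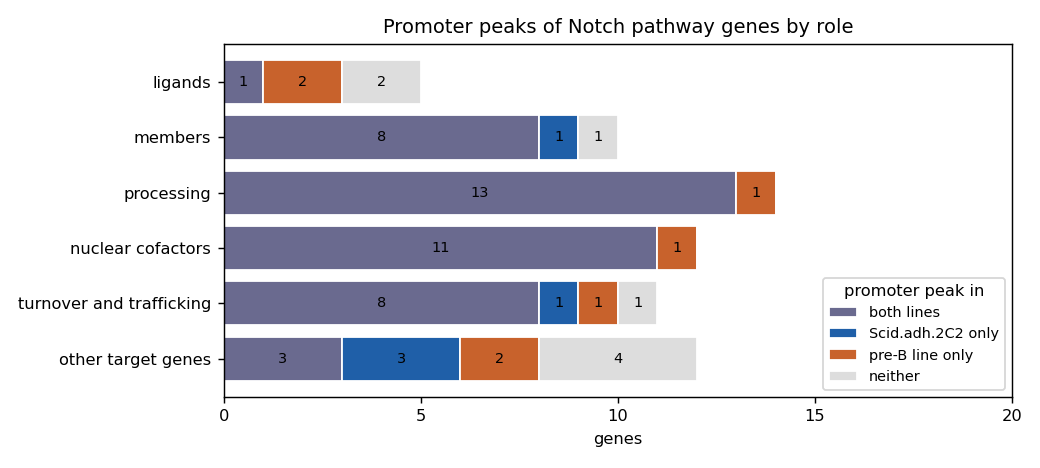
Number of genes (x axis) with a promoter peak in both lines, in Scid.adh.2C2 only, in the pre-B line only or in neither, for the 10 genes described here (members) and for 54 other Notch pathway genes by role. The 12 other target genes are divided 3, 3, 2 and 4 among these classes, whereas 13 of 14 processing genes and 11 of 12 nuclear cofactor genes are marked in both lines.

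Marker genes of blood cell lineages were examined with the same promoter rule. The marker lists were chosen with earlier results of these data known. Their counts are therefore descriptions and no independent check of the identity of the lines. Gata3, Tcf7, Ptcra and Il2ra were also counted among the other target genes above. Over all protein-coding genes the marked share was 45.5% for Scid.adh.2C2, against 48.2% for the pre-B line. All 12 T cell markers were marked in Scid.adh.2C2 and 4 of them in the pre-B line (Cd3d, Lck, Lat and Tcf7). There the Lck peak also reached the promoter window of Fam167b, and the Lat peak that of Spns1. All 10 B cell markers were marked in the pre-B line, where the Igll1 peak also reached the promoter window of Vpreb1. In Scid.adh.2C2 2 of them were marked (Vpreb1, whose peak also reaches Top3b, and Cd72). None of the 6 myeloid and 4 NK cell markers was marked in either line. Of the 4 erythroid markers Klf1 was marked in both lines and Epor in Scid.adh.2C2 only.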

How the data were processed

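H3K4me3 ChIP-seq of the pro-T line Scid.adh.2C2 and an Abelson-transformed pre-B line comprised 2 ChIP libraries and 1 input library per line, described by the labels as replicates and not as separate cultures. Reads were trimmed by the authors (Trim Galore 0.6.7), and they were mapped to mm10 (GRCm38) with Bowtie2 2.4.4. Narrow peaks were called by the authors with MACS2 2.2.7.1 against the input, keeping the optimal set by the irreproducible discovery rate (IDR). The deposited list of a line gives an IDR score, a fold enrichment ratio and the −log10 of the p-value and of the q-value of every peak. These deposited values were used unchanged. Folds are printed for both lines, but they were ranked only within a list, as percentiles (share of peaks of the list at or below the value). The median fold was 20.3 in the Scid.adh.2C2 list and 15.4 in that of the pre-B line, so equal folds do not mean equal ranks. The inputs were used by the authors in peak calling and have no file of their own here. Depth is unknown, since the lists hold no counts.

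Transcription start sites, exons and gene spans were taken from GENCODE M21. Each gene's peaks were found by overlap of at least 1 bp with Python 3.11.15, numpy 2.4.6 and pandas 2.3.3, and sequences were read with pysam 0.24.0. On simulated peaks 200 of 200 genes were classified as planted. The members, pathway lists and marker lists were chosen with earlier results of these data known. All members are named, and of the pathway lists the genes marked in 1 line only and every gene among the other target genes. Other names were chosen after their values were seen. Alternatives covered the window, the peak thresholds, the start sites used, the summit position and the merging of peaks. The reference transcript, the flanks and the merged widths were chosen after seeing the data.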

Additional observations from a re-analysis of the deposited data

How the results depend on the processing

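Of 114 recomputed counts 108 stayed within 1.5 times the reported value. Of the recomputed values per gene 132 did so and 11 did not, among them fold percentiles of Hes5, Notch1 and Notch3. The Hes5 percentile in Scid.adh.2C2 fell from 79.0 to 35.6 when the summit had to lie in the window. In the pre-B line it fell from 32.7 to 15.1 with equal numbers of peaks. Among peaks of at least 10-fold it was 8.59, and that of Notch3 fell from 45.8 to 26.4. With a window of 5000 bp Dtx1 was also marked in the pre-B line, through its intron 3 peak, so that 0 genes were particular to Scid.adh.2C2 in their status. With the highest IDR score of 1000 alone, Scid.adh.2C2 alone had 2 marked genes, Dtx1 and Notch4. With the most upstream TSS only, 5 genes were marked in the pre-B line and the same 5 in both lines, since Notch1, Notch4 and Rbpj lost their marked starts, and 2 genes, Dtx1 and Notch1, had a peak in Scid.adh.2C2 alone. Notch1 was then marked only through the 306 bp peak of 5.94-fold with an IDR score of 557, at the 4.01st percentile of fold. Within 100000 bp of the genes 11 flanking peaks were found in the pre-B line only, against 4 within 50000 bp. In Scid.adh.2C2 only, 10 were found within 100000 bp and 8 within 50000 bp. With peaks within 1000 bp merged, 5 of 8 genes were wider in Scid.adh.2C2, now including Hes5 (7946 bp). The merge widened the peak by over 1.5 times for Hes1 in both lines (to 8375 bp in Scid.adh.2C2 and 7327 bp in the pre-B line), for Hes5 and Notch4 in Scid.adh.2C2 (to 7946 and 6489 bp), and for Nrarp and Notch3 in the pre-B line (to 6534 and 2362 bp). The Notch3 widths were then 2635 and 2362 bp, so that the difference between the lines became smaller for Nrarp and Notch3. No paired analysis was possible because each line has 1 combined list, and no replicate could be left out. Depth is unknown, so a promoter without a peak may be one below detection.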
